A study of Mus musculus with 8 samples.

Results

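The 37 genes described here are 21 genes of glycolysis and 16 genes of the hypoxia response chosen by name from a table of 32728 genes. All 37 were in the table, and all 37 passed the filter on low counts. They were measured by sequencing of poly(A)-selected RNA in organoids from mouse colon cancer, which are cultures of epithelial cells that grow as hollow or solid bodies in a gel. The study asked how such organoids differ in gene expression with and without EGF, the ligand of the EGF receptor. The 4 groups were CTO19 noEGF, CTO19 EM, apsMC706 noEGF and apsMC706 EM, with 2 libraries each. Organoids of both lines carried CRISPR knockouts of Apc, Trp53 and Smad4 in a C57BL/6 background. CTO19 is labelled male and apsMC706 female, and each is a single organoid line. The EM groups had B27, noggin (a BMP inhibitor), galunisertib (a TGF-beta receptor inhibitor) and EGF until day 3. The noEGF groups had been without EGF for 7 days. Medium therefore cannot be told apart from days in culture, nor line from sex. The labels do not say whether the 2 libraries of a group came from separate cultures. P-values of comparisons among the 4 groups thus measure the spread between these libraries, which may be technical. Where the media were compared over both lines, the spread also included unequal responses of the 2 lines. In bulk RNA, fewer cells that express a gene and less of its RNA per cell cannot be told apart.

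Glycolysis splits glucose into pyruvate in the cytosol, and lactate dehydrogenase can turn pyruvate into lactate, which leaves the cell through monocarboxylate transporters. When oxygen is low, the prolyl hydroxylases of the Egln family stop marking the alpha subunits of hypoxia-inducible factor (HIF) for destruction. The stabilised subunits Hif1a and Epas1 (HIF-2 alpha) then pair with Arnt and bind the core motif RCGTG, where R is A or G, near their target genes. Targets include most enzymes of glycolysis and genes for vessel growth, collagen hydroxylation, pH control and mitophagy, and the intestinal epithelium is a tissue that normally lives in a steep oxygen gradient. HIF is controlled mainly at the level of protein, which was not measured here.

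Without EGF, many of these genes moved in opposite directions in the 2 lines. In CTO19, 16 of 21 glycolysis genes fell and 4 rose in noEGF, and 9 of 16 hypoxia genes fell and 4 rose. Over all 16719 genes tested, 68% passed the threshold of an adjusted p under 0.05 in that comparison (33.3% lower and 34.7% higher). In apsMC706, 7 glycolysis genes fell and 12 rose, and 3 hypoxia genes fell and 13 rose, while 67.2% of all genes passed (33.1% lower and 34.1% higher). Changes that passed and were at least 2-fold were seen for 5 glycolysis and 3 hypoxia genes in CTO19 (17.6% of all genes) and for 8 glycolysis and 8 hypoxia genes in apsMC706 (19.6% of all genes). The median log2 fold change of noEGF over EM was -0.61 for the glycolysis genes and -0.48 for the hypoxia genes in CTO19, where the median over all genes was 0.02. In apsMC706 it was 0.50 for the glycolysis genes and 1.12 for the hypoxia genes, where the median over all genes was 0.00090. A called fall in CTO19 together with a called rise in apsMC706 was found for 9 glycolysis genes (42.9%), 8 hypoxia genes (50%) and 1237 of all genes (7.4%). A called fall in both lines was found for 7 glycolysis genes (33.3%), 1 hypoxia gene (6.25%) and 3093 of all genes (18.5%).

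The 5 promoter windows below show the sequence around the annotated start of genes from both patterns. P4ha1, Pgk1 and Slc16a3 fell in CTO19 and rose in apsMC706, and Slc2a1 and Ldha fell in both lines. Each window runs 5′ to 3′ from 250 bases before to 50 bases after the start, is 300 bases long, lies on the plus strand and was taken from RefSeq on GRCm38.p6. Capitals mark ACGTG or GCGTG on the strand shown and their reverse complements CACGT and CACGC, with overlapping matches merged.
P4ha1 promoter: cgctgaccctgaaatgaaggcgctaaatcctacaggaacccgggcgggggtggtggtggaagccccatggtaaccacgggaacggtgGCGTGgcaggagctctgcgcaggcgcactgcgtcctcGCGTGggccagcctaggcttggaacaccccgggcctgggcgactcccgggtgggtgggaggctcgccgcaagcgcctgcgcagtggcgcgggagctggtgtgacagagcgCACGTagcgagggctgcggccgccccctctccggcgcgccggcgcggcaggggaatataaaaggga
Pgk1 promoter: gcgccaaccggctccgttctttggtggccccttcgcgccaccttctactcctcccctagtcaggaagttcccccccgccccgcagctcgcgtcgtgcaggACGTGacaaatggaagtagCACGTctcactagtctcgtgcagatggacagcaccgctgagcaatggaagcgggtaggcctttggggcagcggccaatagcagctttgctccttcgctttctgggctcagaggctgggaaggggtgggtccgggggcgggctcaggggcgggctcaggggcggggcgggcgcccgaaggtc
Slc16a3 promoter: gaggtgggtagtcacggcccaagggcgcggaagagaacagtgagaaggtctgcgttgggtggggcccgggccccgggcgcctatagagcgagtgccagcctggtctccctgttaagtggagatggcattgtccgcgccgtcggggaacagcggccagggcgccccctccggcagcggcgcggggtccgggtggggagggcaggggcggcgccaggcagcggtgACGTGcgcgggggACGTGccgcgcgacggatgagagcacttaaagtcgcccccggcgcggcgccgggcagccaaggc
Slc2a1 promoter: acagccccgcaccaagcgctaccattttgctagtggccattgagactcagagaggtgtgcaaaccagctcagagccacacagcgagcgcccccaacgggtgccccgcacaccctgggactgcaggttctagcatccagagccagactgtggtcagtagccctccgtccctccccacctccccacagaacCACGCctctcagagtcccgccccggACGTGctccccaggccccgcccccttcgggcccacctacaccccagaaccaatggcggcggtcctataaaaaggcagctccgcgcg
Ldha promoter: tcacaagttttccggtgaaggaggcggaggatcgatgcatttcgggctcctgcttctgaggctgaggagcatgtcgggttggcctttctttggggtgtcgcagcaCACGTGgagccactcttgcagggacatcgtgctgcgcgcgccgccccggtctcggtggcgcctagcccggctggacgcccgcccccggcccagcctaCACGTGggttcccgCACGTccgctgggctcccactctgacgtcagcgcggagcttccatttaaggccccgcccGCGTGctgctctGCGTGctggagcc
The windows lie at chr10:59323046-59323345, chrX:106186850-106187149, chr11:120948817-120949116, chr4:119108495-119108794 and chr7:46845554-46845853. They held 3, 2, 2, 2 and 5 merged matches in that order. Ldha had a further window, at chr7:46846832-46847131, which held 2 matches and is not shown. RefSeq windows were found for 34 of the 37 genes, and none was found for Epas1, Ndrg1 and Bhlhe40. At least 1 window with the motif was found for 18 of 21 glycolysis genes (85.7%) and 12 of 13 hypoxia genes (92.3%), against 46.7% of all genes. A gene with more windows is more likely to have 1 with the motif. The 21 glycolysis genes had 34 windows, the 13 hypoxia genes 16, and all 27025 genes 32851. Windows rich in G and C hold the motif more often: 62.5% of windows with a GC content between 56.4% and 67.3%, the middle range of the members' windows, held it, against 43.8% of all windows. Counted per window in the same way, 76.5% of the 34 glycolysis windows and 75% of the 16 hypoxia windows held it. Most members held the motif, so that both patterns of response occur among genes with it was fixed in advance. A match of 5 letters is a description of the sequence and not a binding site.

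The 8 libraries held 35650262 to 38953838 counts. Genes of the mitochondrial genome accounted for 5.11% to 5.19% of counts in CTO19 noEGF against 2.94% to 3.47% in CTO19 EM, and 4.13% to 4.60% in apsMC706 noEGF against 3.07% to 3.68% in apsMC706 EM. The summed level of 8 epithelial markers was 3818 to 3902 CPM in CTO19 noEGF against 3032 to 3182 CPM in CTO19 EM, and 3466 to 3498 CPM in apsMC706 noEGF against 3352 to 3408 CPM in apsMC706 EM. All 8 were detected, but Cdx2, which specifies intestinal epithelium, was at 0.861 to 2.30 CPM in CTO19 and 9.23 to 10.3 CPM in apsMC706. Summed fibroblast (7 genes), immune (6) and endothelial (4) markers were at most 12.6 CPM in every library, with Col1a2, Lum, Thy1, Ptprc and Cd3e at or near 0. The fibroblast sum was 10.9 to 11.4 CPM in CTO19 noEGF against 1.85 to 1.91 CPM in CTO19 EM, most of it Dcn. In apsMC706 it was 7.72 to 8.90 CPM in noEGF against 3.995 to 4.09 CPM in EM. The immune sum, mostly Cd68 and Csf1r, was 11.1 to 12.6 CPM in CTO19 noEGF against 5.06 to 5.59 CPM in CTO19 EM, and 7.87 to 7.99 CPM in apsMC706 noEGF against 1.38 to 1.53 CPM in apsMC706 EM. Muscle and glia markers (5) summed to 15.1 to 36.5 CPM, mostly Acta2, with Des at 0. The part of such cells and of the mitochondrial share in the results was not tested. Transcripts of the targeted genes remained: Apc was at 59.8 to 78.2 CPM in CTO19 and 177 to 198 CPM in apsMC706, Trp53 at 28.4 to 33.3 CPM in CTO19 and 13.1 to 16.4 CPM in apsMC706, and Smad4 at 10.8 to 19.1 CPM in CTO19 and 33.7 to 39.9 CPM in apsMC706. A small edit that breaks a reading frame need not remove the transcript, so these levels do not check the knockouts.

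As a share of all counts, the 21 glycolysis genes took 0.612% and 0.622% in CTO19 noEGF against 0.909% and 0.973% in CTO19 EM. In apsMC706 the share was 0.907% and 0.946% in noEGF against 0.801% and 0.817% in EM. The 16 hypoxia genes took 0.0750% and 0.0776% in CTO19 noEGF against 0.0896% and 0.0901% in CTO19 EM, and 0.122% and 0.124% in apsMC706 noEGF against 0.0754% and 0.0773% in apsMC706 EM. The libraries of the media did not overlap in either share in either line, and the sign of the difference was opposite between lines. The rise of the glycolysis share in apsMC706 rested on Pgk1 and Aldoa. Pgk1 averaged 1479 CPM in noEGF against 616 CPM in EM, and Aldoa 813 CPM against 313 CPM. The sum of all 21 genes was 9073 to 9347 CPM against 8050 to 8182 CPM. Of the 21 genes, 12 rose and 7 fell in apsMC706. In other genes, 53.9% of the 50-base stretches of Pgk1 also occur. Pkm, Pgk1, Ldha, Pgam1, Eno1, Aldoa and Tpi1 were the most abundant members per length, at 465, 348, 309, 242, 234, 202 and 159 reads per kilobase of exon and 1e6 counts (RPKM) over the 8 libraries. The hypoxia gene highest per length was Hif1a at 43.9 RPKM, close to Ddit4 at 43.4 RPKM.

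**Figure D1:**
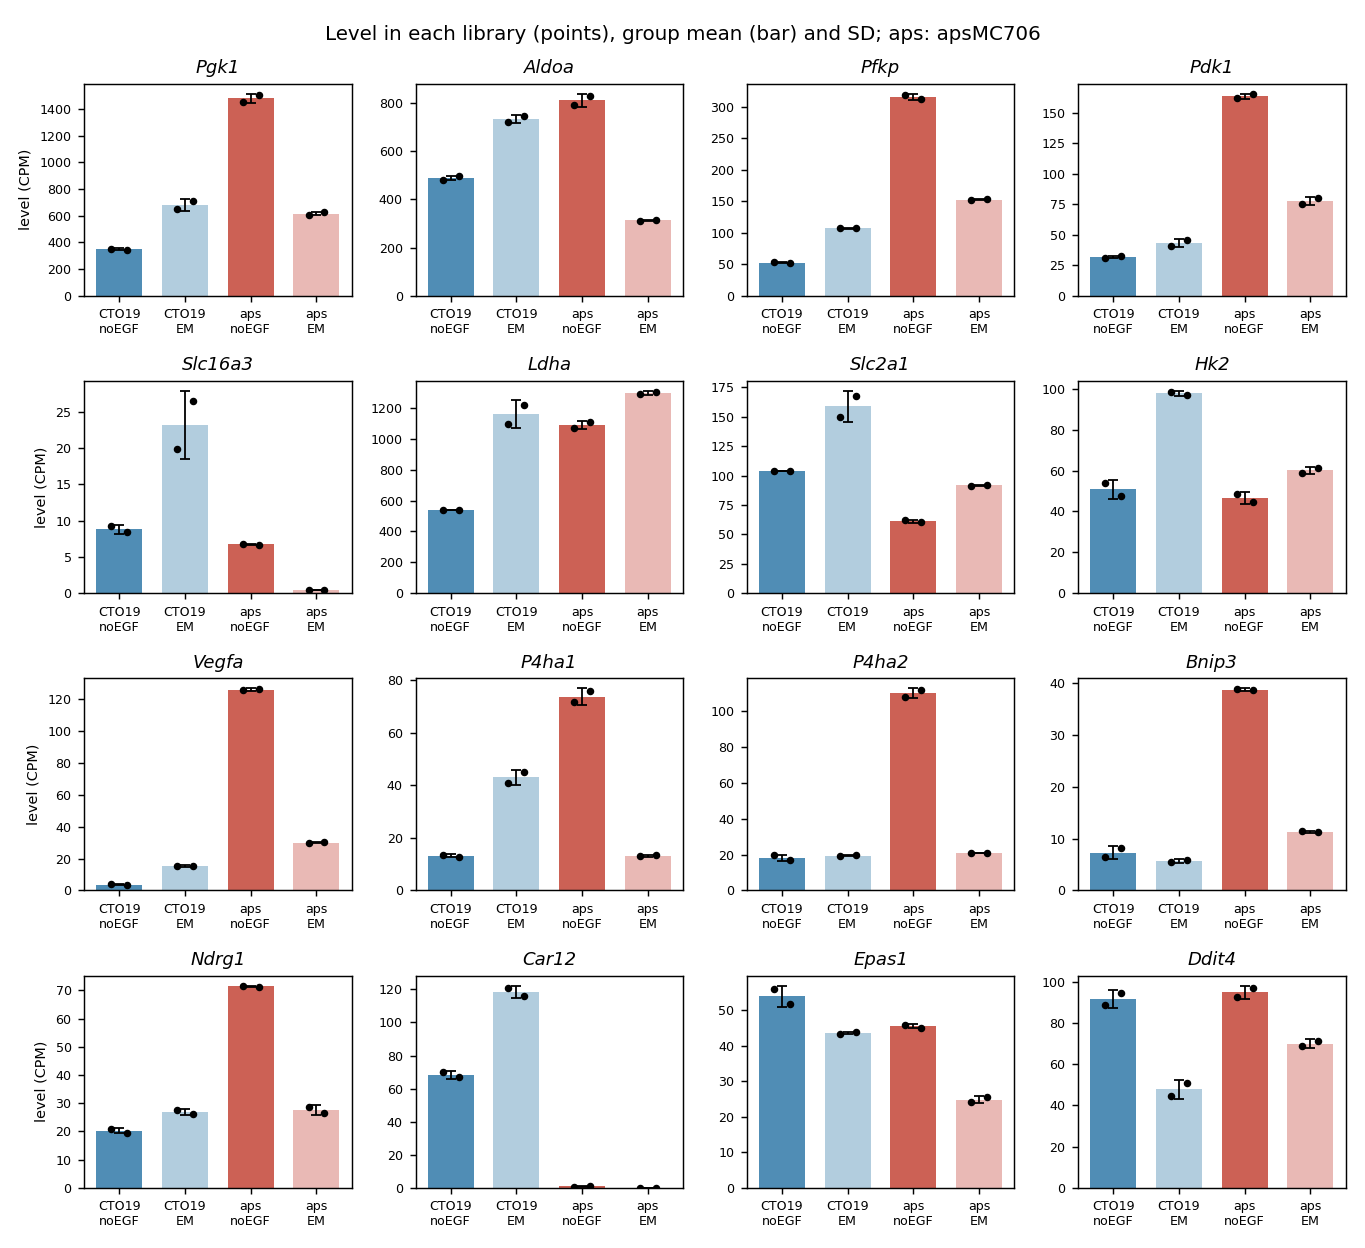
Level of 16 of the 37 genes in counts per 1e6 (CPM) in each library. Points are the 2 libraries of a group, bars their mean, whiskers the SD, dark bars noEGF and light bars EM, with CTO19 in blue and apsMC706 in red; Pgk1, Vegfa, P4ha1 and Ndrg1 are highest in apsMC706 noEGF, and Slc2a1 and Hk2 are highest in CTO19 EM.

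Of the genes of glucose uptake and trapping, Slc2a1 and Hk2 fell in noEGF in both lines. Slc2a1 encodes GLUT1, the basal glucose transporter, at chr4:119108711-119137983, plus strand (mm10). It had 104 and 104 CPM in CTO19 noEGF against 149.7 and 168 CPM in CTO19 EM, and 61.8 and 60.3 CPM in apsMC706 noEGF against 91.5 and 92.2 CPM in apsMC706 EM. The noEGF libraries lay below the EM libraries in both lines, with log2 fold changes of -0.62 ± 0.050 (SE; adjusted p = 5.08e-08) in CTO19 and -0.59 ± 0.052 (SE; adjusted p = 9.49e-08) in apsMC706. The responses differed by -0.03 ± 0.072 (CTO19 minus apsMC706, adjusted p = 0.801), which did not pass the threshold; a p above it does not show that the lines respond alike. Hexokinase phosphorylates glucose and so keeps it in the cell. Hk2, the inducible hexokinase, averaged 50.8 ± 4.60 CPM in CTO19 noEGF against 97.9 ± 1.10 CPM in CTO19 EM, and 46.7 ± 2.78 CPM in apsMC706 noEGF against 60.2 ± 1.71 CPM in apsMC706 EM (SD, n = 2 each). Its log2 fold change was -0.95 (adjusted p = 5.53e-09) in CTO19 and -0.37 (adjusted p = 9.13e-05) in apsMC706. Hk1, the constitutive hexokinase, had 127 and 120.2 CPM in CTO19 noEGF against 201 and 198 CPM in CTO19 EM, and 119 and 118 CPM in apsMC706 noEGF against 84.0 and 84.1 CPM in apsMC706 EM. It fell in CTO19 and rose in apsMC706, with log2 fold changes of -0.69 (adjusted p = 1.36e-09) in CTO19 and 0.50 (adjusted p = 4.61e-08) in apsMC706.

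Gpi1, Pfkp and Pfkl of the upper pathway moved in opposite directions in the lines. Gpi1, phosphoglucose isomerase, had 332 and 328 CPM in CTO19 noEGF against 449 and 452 CPM in CTO19 EM, and 723 and 748 CPM in apsMC706 noEGF against 457 and 465 CPM in apsMC706 EM. Its log2 fold change was -0.45 (adjusted p = 5.31e-08) in CTO19 and 0.68 (adjusted p = 4.04e-10) in apsMC706. Pfkp, the platelet-type phosphofructokinase, catalyses the committed step and lies at chr13:6579768-6648777, minus strand (mm10). It had 52.8 and 52.3 CPM in CTO19 noEGF against 108 and 107 CPM in CTO19 EM, and 319 and 312 CPM in apsMC706 noEGF against 152 and 153 CPM in apsMC706 EM. It fell 2.04-fold in CTO19 and rose 2.07-fold in apsMC706, with log2 fold changes of -1.03 ± 0.039 (SE; adjusted p = 2.53e-11) in CTO19 and 1.05 ± 0.037 (SE; adjusted p = 5.19e-12) in apsMC706. Pfkl, the liver-type enzyme, had 117 and 128 CPM in CTO19 noEGF against 142 and 166 CPM in CTO19 EM, and 188 and 198 CPM in apsMC706 noEGF against 109 and 113 CPM in apsMC706 EM. It moved in the same directions, at -0.33 (adjusted p = 0.00233) in CTO19 and 0.79 (adjusted p = 4.62e-06) in apsMC706. The fall of Pfkl in CTO19 was -0.22 without CTO19 EM replicate 2. Pfkm, the muscle-type enzyme, rose in both lines, with 25.8 and 27.4 CPM in CTO19 noEGF against 14.5 and 16.2 CPM in CTO19 EM, and 20.9 and 23.7 CPM in apsMC706 noEGF against 11.3 and 10.2 CPM in apsMC706 EM. The log2 fold changes of Pfkm were 0.79 (adjusted p = 6.45e-07) in CTO19 and 1.05 (adjusted p = 4.67e-08) in apsMC706.

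Of the enzymes that make and break the fructose bisphosphate that activates phosphofructokinase, Pfkfb3 did not pass the threshold in either line. Its log2 fold change was 0.16 (adjusted p = 0.0607) in CTO19 and 0.10 (adjusted p = 0.239) in apsMC706, around levels of 23.4 ± 2.17 CPM in CTO19 noEGF and 20.98 ± 0.445 CPM in CTO19 EM, and 18.7 ± 0.499 CPM in apsMC706 noEGF and 17.5 ± 0.567 CPM in apsMC706 EM (SD, n = 2 each). It passed when 1 library was left out, in CTO19 with an adjusted p 0.0048 without library 1 of CTO19 noEGF and in apsMC706 with an adjusted p 0.0144 to 0.0147 without library 1 or 2 of CTO19 noEGF. With all libraries its adjusted p was 0.0279 with the stricter filter in CTO19, and 0.0434 with upper-quartile factors, 0.0472 with no filter and 0.0148 with the stricter filter in apsMC706. Pfkfb4 had 14.6 and 18.4 CPM in CTO19 noEGF against 10.1 and 10.3 CPM in CTO19 EM, and 1.77 and 2.19 CPM in apsMC706 noEGF against 2.22 and 1.88 CPM in apsMC706 EM. It rose in CTO19, at 0.69 (adjusted p = 8.54e-05), and its apsMC706 libraries overlapped between media, at -0.05 (adjusted p = 0.855).

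Both aldolases, which split the sugar bisphosphate into triose phosphates, rose in apsMC706. Aldoa, the main isoform, had 482 and 496 CPM in CTO19 noEGF against 722 and 748 CPM in CTO19 EM, and 794 and 832 CPM in apsMC706 noEGF against 312 and 313 CPM in apsMC706 EM. Its log2 fold changes were -0.59 ± 0.039 (SE; adjusted p = 6.34e-09) in CTO19 and 1.38 ± 0.040 (SE; adjusted p = 8.01e-13) in apsMC706, so that the highest level was in apsMC706 noEGF and the lowest in apsMC706 EM. Aldoc, the isoform best known from brain, had 17.5 and 21.6 CPM in CTO19 noEGF against 9.32 and 13.2 CPM in CTO19 EM, and 89.2 and 93.8 CPM in apsMC706 noEGF against 19.4 and 19.4 CPM in apsMC706 EM. Aldoc rose in both lines, by a log2 fold change of 0.80 (adjusted p = 0.00577) in CTO19 and 2.24 (adjusted p = 1.12e-05) in apsMC706. Tpi1, triosephosphate isomerase, averaged 309 ± 4.18 CPM in CTO19 noEGF against 431 ± 36.1 CPM in CTO19 EM, and 544 ± 23.2 CPM in apsMC706 noEGF against 472 ± 8.19 CPM in apsMC706 EM (SD, n = 2 each). It fell in CTO19, at -0.48 (adjusted p = 2.17e-06), and rose in apsMC706, at 0.20 (adjusted p = 0.00293). The rise missed the threshold when 1 library was left out, with an adjusted p 0.0501 to 0.0697 without library 1 of apsMC706 EM or 2 of apsMC706 noEGF.

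In the lower part of the pathway, Pgk1 fell in CTO19 and rose in apsMC706, while Gapdh fell in both lines. Phosphoglycerate kinase, its product, makes the first ATP of glycolysis, and the gene lies at chrX:106187100-106203699, plus strand (mm10). Pgk1 had 353 and 344 CPM in CTO19 noEGF against 648 and 710.5 CPM in CTO19 EM, and 1455 and 1503 CPM in apsMC706 noEGF against 606 and 625 CPM in apsMC706 EM. Every noEGF library lay below the EM libraries in CTO19 and above them in apsMC706, with log2 fold changes of -0.96 ± 0.045 (SE; adjusted p = 1.89e-10) in CTO19 and 1.26 ± 0.045 (SE; adjusted p = 6.21e-12) in apsMC706. Gapdh, the enzyme before it, had 64.6 and 65.4 CPM in CTO19 noEGF against 141 and 133 CPM in CTO19 EM, and 82.7 and 88.3 CPM in apsMC706 noEGF against 99.1 and 99.98 CPM in apsMC706 EM. Gapdh had log2 fold changes of -1.07 (adjusted p = 6.94e-11) in CTO19 and -0.22 (adjusted p = 0.000547) in apsMC706. Its apsMC706 value was -0.13 without CTO19 noEGF replicate 1 and -0.13 without replicate 2. With a stricter filter on low counts it was -0.10 (adjusted p = 0.0701) and did not pass. Counting was uncertain for both: 53.9% of the 50-base stretches of Pgk1 and 25.1% of those of Gapdh occur in other genes, chiefly the retrogene Pgk1-rs7 and the copy Gm7336. Gapdh was at 23.4 RPKM, below Tpi1 at 159 RPKM and Pgk1 at 348 RPKM, and how reads that match several of its copies were counted is not known here.

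Phosphoglycerate mutase, enolase and pyruvate kinase carry the carbon on to pyruvate, and their main genes Eno1 and Pkm fell in both lines, while the fall of Pgam1 in apsMC706 did not pass under any alternative of scaling or filter run. Pgam1 averaged 356 ± 2.76 CPM in CTO19 noEGF against 617 ± 41.2 CPM in CTO19 EM, and 451 ± 9.21 CPM in apsMC706 noEGF against 493 ± 6.60 CPM in apsMC706 EM. Eno1 averaged 1071 ± 45.3 CPM in CTO19 noEGF against 1724 ± 41.6 CPM in CTO19 EM, and 962 ± 18.9 CPM in apsMC706 noEGF against 1274 ± 34.8 CPM in apsMC706 EM. Pkm averaged 1911 ± 29.3 CPM in CTO19 noEGF against 2924 ± 149 CPM in CTO19 EM, and 2007 ± 29.4 CPM in apsMC706 noEGF against 2461 ± 2.68 CPM in apsMC706 EM (all SD, n = 2 each). The log2 fold changes in CTO19 were -0.79 (adjusted p = 1.11e-09) for Pgam1, -0.69 (adjusted p = 2.35e-09) for Eno1 and -0.61 (adjusted p = 5.42e-09) for Pkm. In apsMC706 they were -0.13 (adjusted p = 0.0173) for Pgam1, -0.40 (adjusted p = 4.89e-07) for Eno1 and -0.29 (adjusted p = 1.07e-05) for Pkm. The fall of Pgam1 in apsMC706 missed the threshold when 1 library was left out, with an adjusted p 0.112 to 0.39 without library 2 of apsMC706 EM or 1 of apsMC706 noEGF or 1 or 2 of CTO19 noEGF. It also missed it with all libraries, at 0.156 with DESeq2 size factors, 0.344 with upper-quartile factors, 0.222 with no filter, 0.874 with the stricter filter and 0.248 with the DESeq2 Wald test. Shares of 36.2%, 26.0% and 25.8% of the 50-base stretches of Pgam1, Eno1 and Pkm occur in other genes. The copy Eno1b had log2 fold changes of -0.70 in CTO19 and -0.41 in apsMC706, and how its difference from Eno1 compares with the error was not tested. Eno2, the enolase of neurons and endocrine cells, was near the detection limit, with 0.592 and 0.422 CPM in CTO19 noEGF against 0.116 and 0.253 CPM in CTO19 EM, and 0.709 and 0.845 CPM in apsMC706 noEGF against 0.185 and 0.163 CPM in apsMC706 EM. Eno2 rose in both lines, at 1.43 (adjusted p = 0.01) in CTO19 and 2.14 (adjusted p = 0.000266) in apsMC706 on the log2 scale, and its CTO19 adjusted p was 0.111 without CTO19 EM replicate 1 and 0.0712 without CTO19 noEGF replicate 1, and 0.0655 with the DESeq2 Wald test.

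Of the genes that decide the fate of pyruvate, Ldha, Pdk1 and Slc16a3 all fell in CTO19 but moved in different directions in apsMC706. Ldha, whose product makes lactate, had 538 and 541 CPM in CTO19 noEGF against 1099 and 1225 CPM in CTO19 EM, and 1074 and 1110.0 CPM in apsMC706 noEGF against 1290.0 and 1308 CPM in apsMC706 EM. It fell in both lines, at -1.11 (adjusted p = 6.94e-11) in CTO19 and -0.25 (adjusted p = 0.000215) in apsMC706 on the log2 scale, and the apsMC706 value was -0.16 without CTO19 noEGF replicate 1. Pdk1 encodes a kinase that switches off pyruvate dehydrogenase and so keeps pyruvate out of the mitochondrion, and it had 31.3 and 32.4 CPM in CTO19 noEGF against 40.9 and 45.4 CPM in CTO19 EM, and 162 and 165 CPM in apsMC706 noEGF against 75.6 and 80.0 CPM in apsMC706 EM. Pdk1 fell in CTO19, at -0.44 (adjusted p = 6.69e-06), and rose in apsMC706, at 1.07 (adjusted p = 9.2e-11). Slc16a3 encodes MCT4, a lactate exporter of highly glycolytic cells, at chr11:120948480-120960868, plus strand (mm10). It had 9.26 and 8.37 CPM in CTO19 noEGF against 19.9 and 26.5 CPM in CTO19 EM, and 6.76 and 6.66 CPM in apsMC706 noEGF against 0.370 and 0.354 CPM in apsMC706 EM. It fell in CTO19 and rose 18.4-fold in apsMC706, from a level near the detection limit in EM, with log2 fold changes of -1.40 ± 0.12 (SE; adjusted p = 6.58e-07) in CTO19 and 4.20 ± 0.25 (SE; adjusted p = 1.67e-08) in apsMC706.

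**Figure D2:**
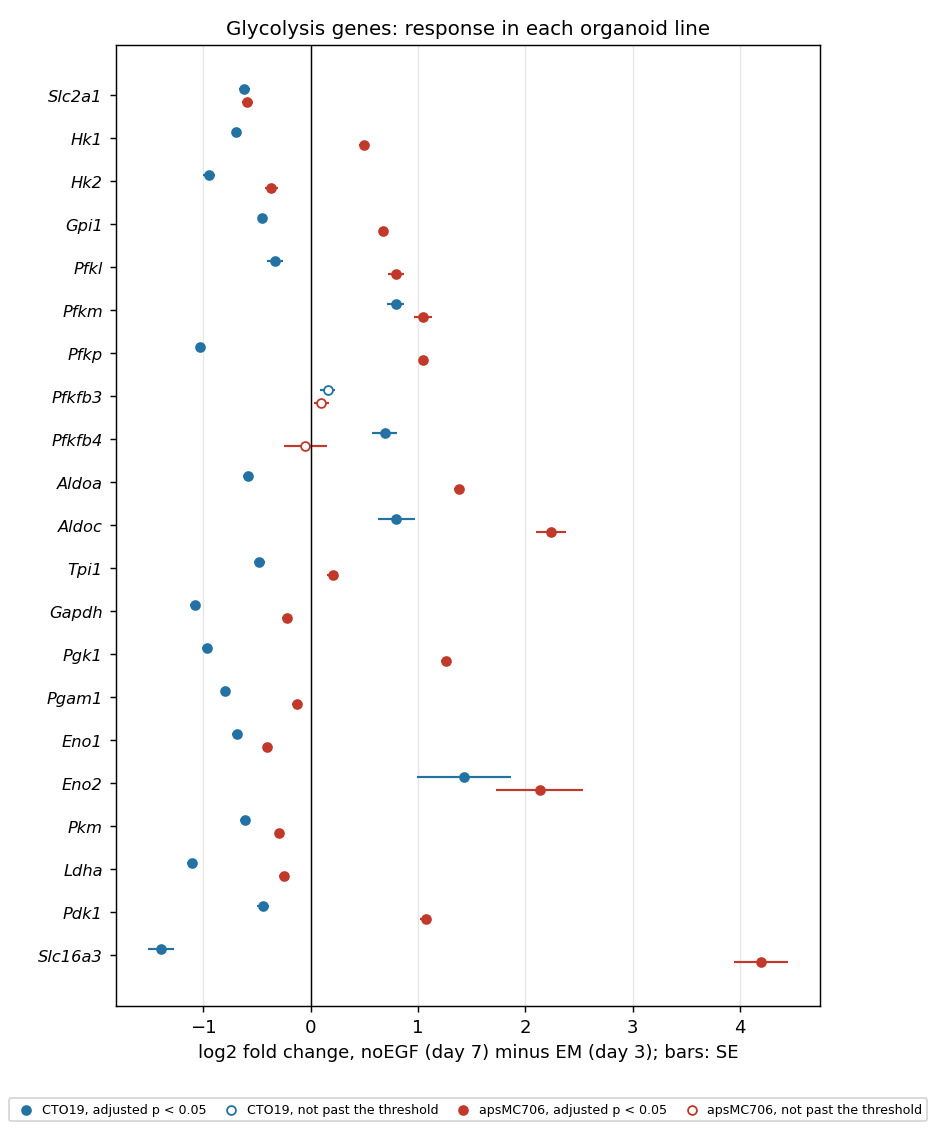
Response of the 21 glycolysis genes, in the order of the pathway, as the log2 fold change of noEGF (day 7) over EM (day 3) on the x axis, with CTO19 (blue) above apsMC706 (red). Whiskers are the SE, and open points missed an adjusted p under 0.05; 16 blue points are filled and left of 0, and 12 red points are filled and right of 0.

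The transcripts of both HIF alpha subunits changed by less than 2-fold in either line. Hif1a had 177 and 199 CPM in CTO19 noEGF against 278 and 270.3 CPM in CTO19 EM, and 308 and 301 CPM in apsMC706 noEGF against 265 and 273 CPM in apsMC706 EM. It fell in CTO19 and rose by little in apsMC706, with log2 fold changes of -0.54 ± 0.049 (SE; adjusted p = 2.18e-07) in CTO19 and 0.18 ± 0.049 (SE; adjusted p = 0.00497) in apsMC706. The rise in apsMC706 had an adjusted p of 0.0776 without apsMC706 EM replicate 1 and 0.0645 without apsMC706 noEGF replicate 1. Epas1, the other alpha subunit, rose in both lines, with 56.0 and 51.9 CPM in CTO19 noEGF against 43.4 and 43.8 CPM in CTO19 EM, and 45.9 and 45.1 CPM in apsMC706 noEGF against 24.2 and 25.5 CPM in apsMC706 EM. Its log2 fold changes were 0.31 ± 0.051 (SE; adjusted p = 9.27e-05) in CTO19 and 0.87 ± 0.055 (SE; adjusted p = 2.14e-09) in apsMC706. Per length, Epas1 made up 23.3% of Hif1a and Epas1 together in CTO19 noEGF against 14.4% in CTO19 EM, and 13.6% in apsMC706 noEGF against 8.88% in apsMC706 EM.

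The oxygen sensors Egln1 (PHD2) and Egln3 (PHD3) hydroxylate the HIF alpha subunits, and both genes are known HIF targets. Egln1 averaged 47.6 ± 0.307 CPM in CTO19 noEGF against 68.9 ± 3.77 CPM in CTO19 EM, and 64.9 ± 1.82 CPM in apsMC706 noEGF against 75.0 ± 1.56 CPM in apsMC706 EM (SD, n = 2 each). It fell in both lines, at -0.53 (adjusted p = 2.04e-07) in CTO19 and -0.21 (adjusted p = 0.00133) in apsMC706, and the apsMC706 value was -0.12 without CTO19 noEGF replicate 1. With the stricter filter the apsMC706 value was -0.09 (adjusted p = 0.112) and did not pass. Egln3 had 43.3 and 37.2 CPM in CTO19 noEGF against 66.1 and 69.1 CPM in CTO19 EM, and 55.6 and 55.1 CPM in apsMC706 noEGF against 43.8 and 41.7 CPM in apsMC706 EM. Egln3 fell in CTO19, at -0.75 (adjusted p = 9.22e-08), and rose in apsMC706, at 0.37 (adjusted p = 9.31e-05).

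Of the hypoxia genes, P4ha1 and Vegfa had the largest difference between the responses of the lines. Vegfa encodes the main growth factor of blood vessels, at chr17:46016993-46032369, minus strand (mm10), and had 3.85 and 3.40 CPM in CTO19 noEGF against 15.0 and 15.6 CPM in CTO19 EM, and 126 and 127 CPM in apsMC706 noEGF against 29.6 and 30.1 CPM in apsMC706 EM. It fell 4.23-fold in CTO19 and rose 4.22-fold in apsMC706, with log2 fold changes of -2.08 ± 0.078 (SE; adjusted p = 2.12e-11) in CTO19 and 2.08 ± 0.048 (SE; adjusted p = 1.54e-13) in apsMC706. The lines thus differed in the response by -4.16 ± 0.090 (SE, log2 scale, CTO19 minus apsMC706, adjusted p = 2.33e-13). P4ha1 and P4ha2 encode the catalytic subunits of the prolyl hydroxylase that stabilises collagen. P4ha1, at chr10:59323296-59373304, plus strand (mm10), had 13.6 and 12.8 CPM in CTO19 noEGF against 40.9 and 45.0 CPM in CTO19 EM, and 71.5 and 75.9 CPM in apsMC706 noEGF against 12.9 and 13.4 CPM in apsMC706 EM. Its log2 fold changes were -1.70 ± 0.066 (SE; adjusted p = 2.7e-11) in CTO19 and 2.48 ± 0.064 (SE; adjusted p = 3.29e-13) in apsMC706. P4ha2 had 19.6 and 17.1 CPM in CTO19 noEGF against 19.2 and 19.7 CPM in CTO19 EM, and 108 and 112 CPM in apsMC706 noEGF against 20.9 and 20.7 CPM in apsMC706 EM. P4ha2 rose in apsMC706, at 2.40 (adjusted p = 2.04e-13), while its CTO19 libraries overlapped, at -0.08 (adjusted p = 0.274), and the difference of the responses was -2.49 (adjusted p = 2.97e-11). The CTO19 test of P4ha2 passed with 1 library left out, with an adjusted p 0.0416 without library 1 of CTO19 noEGF. Adm, which encodes the vessel-relaxing peptide adrenomedullin, had 1.55 and 1.56 CPM in apsMC706 noEGF against 0.423 and 0.463 CPM in apsMC706 EM, a log2 fold change of 1.81 (adjusted p = 2.75e-05). In CTO19, Adm had 1 and 2 counts in the noEGF libraries against 4 and 2 counts in the EM libraries, at the floor of 3 counts per library, and no fold is given.

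The carbonic anhydrases Car9 and Car12 sit on the cell surface and help to export acid. Car12 had 69.9 and 66.7 CPM in CTO19 noEGF against 121 and 116 CPM in CTO19 EM, and 0.764 and 0.792 CPM in apsMC706 noEGF against 0.106 and 0.109 CPM in apsMC706 EM. It fell in CTO19, where it was abundant, and rose in apsMC706, where it was near the detection limit, with log2 fold changes of -0.79 ± 0.045 (SE; adjusted p = 1.14e-09) in CTO19 and 2.82 ± 0.33 (SE; adjusted p = 2.09e-06) in apsMC706. Car9 had 1.56 and 1.07 CPM in CTO19 noEGF against 4.28 and 3.82 CPM in CTO19 EM, and 0.409 and 0.396 CPM in apsMC706 noEGF against 0.132 and 0.109 CPM in apsMC706 EM. Car9 likewise fell in CTO19, at -1.63 (adjusted p = 3.53e-06), and rose in apsMC706, at 1.71 (adjusted p = 0.00528), from 4 and 5 counts per library in apsMC706 EM.

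Bnip3, a mitophagy receptor of the outer mitochondrial membrane, had 6.46 and 8.12 CPM in CTO19 noEGF against 5.44 and 5.96 CPM in CTO19 EM, and 38.9 and 38.6 CPM in apsMC706 noEGF against 11.5 and 11.2 CPM in apsMC706 EM. It rose in both lines, at 0.36 (adjusted p = 0.00941) in CTO19 and 1.77 (adjusted p = 8.41e-11) in apsMC706. Its adjusted p in CTO19 was 0.175 without CTO19 noEGF replicate 2 and 0.059 without CTO19 EM replicate 1, and 47.2% of its 50-base stretches occur in other genes. Ndrg1, a gene induced by stress and differentiation, had 20.99 and 19.6 CPM in CTO19 noEGF against 27.6 and 26.2 CPM in CTO19 EM, and 71.6 and 71.3 CPM in apsMC706 noEGF against 28.8 and 26.4 CPM in apsMC706 EM. Ndrg1 fell in CTO19, at -0.41 (adjusted p = 3.61e-05), and rose in apsMC706, at 1.37 (adjusted p = 2.08e-11). Ddit4 encodes REDD1, an inhibitor of mTORC1, and averaged 91.6 ± 4.26 CPM in CTO19 noEGF against 47.8 ± 4.64 CPM in CTO19 EM, and 94.9 ± 3.15 CPM in apsMC706 noEGF against 70.0 ± 2.01 CPM in apsMC706 EM (SD, n = 2 each). It rose in both lines, and more in CTO19, at 0.94 (adjusted p = 1.32e-08) in CTO19 and 0.44 (adjusted p = 1.63e-05) in apsMC706, with a difference of 0.50 (adjusted p = 0.000196).

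Among nuclear members, Bhlhe40, a transcriptional repressor, had 84.5 and 86.6 CPM in CTO19 noEGF against 114 and 116 CPM in CTO19 EM, and 151 and 152 CPM in apsMC706 noEGF against 82.3 and 88.9 CPM in apsMC706 EM. Bhlhe40 fell in CTO19, at -0.43 (adjusted p = 6.89e-07), and rose in apsMC706, at 0.82 (adjusted p = 3.72e-10). Kdm3a, a histone demethylase, showed the reverse. It averaged 101 ± 2.98 CPM in CTO19 noEGF against 74.9 ± 4.10 CPM in CTO19 EM, and 80.9 ± 0.792 CPM in apsMC706 noEGF against 91.9 ± 0.678 CPM in apsMC706 EM (SD, n = 2 each). Kdm3a rose in CTO19, at 0.43 (adjusted p = 1.09e-06), and fell in apsMC706, at -0.18 (adjusted p = 0.00248), and the fall had an adjusted p of 0.0664 without CTO19 noEGF replicate 1 and 0.0663 without replicate 2. The adjusted p of this fall was also 0.052 with upper-quartile factors, 0.243 with the stricter filter and 0.081 with the DESeq2 Wald test. Ankrd37, an ankyrin-repeat gene, averaged 2.17 ± 0.444 CPM in CTO19 noEGF against 2.02 ± 0.562 CPM in CTO19 EM, and 1.90 ± 0.261 CPM in apsMC706 noEGF against 3.41 ± 0.412 CPM in apsMC706 EM (SD, n = 2 each). Ankrd37 fell in apsMC706, at -0.84 (adjusted p = 0.00245), and did not pass in CTO19, at 0.11 (adjusted p = 0.684). It shares sequence with its neighbours Ufsp2 and Lrp2bp on the other strand, and reads of overlapping genes cannot be told apart without strand.

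**Figure D3:**
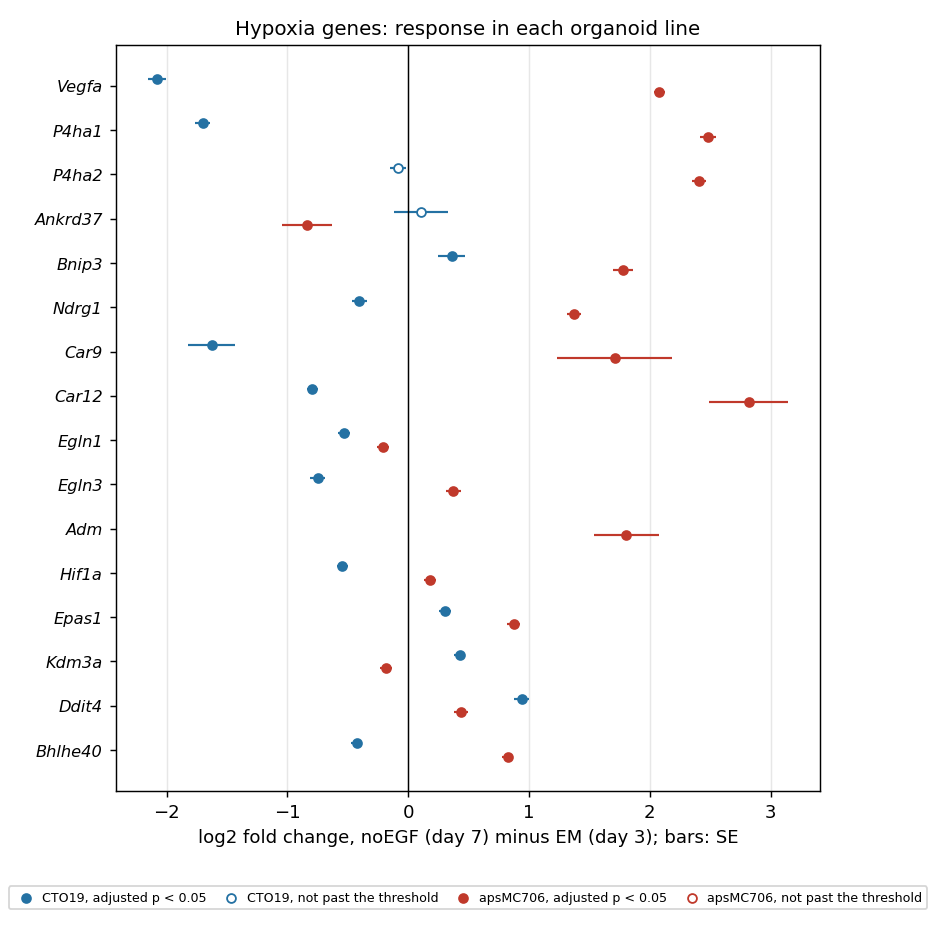
Response of the 16 hypoxia genes as the log2 fold change of noEGF (day 7) over EM (day 3) on the x axis, with CTO19 (blue) above apsMC706 (red). Whiskers are the SE and open points missed an adjusted p under 0.05; 13 red points are filled and right of 0, 9 blue points are filled and left of 0, and Adm in CTO19 is not drawn because its counts were at the floor.

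The difference of the responses was tested directly. It was lower in CTO19 for 16 glycolysis genes and higher for 1, and lower for 13 hypoxia genes and higher for 3, where 56% of all genes passed (25.6% lower and 30.4% higher). At least 2-fold differences passed for 9 glycolysis and 10 hypoxia genes, and for 16.3% of all genes. The median difference was -0.85 for the glycolysis genes and -1.33 for the hypoxia genes, and 0.06 over all genes. After Slc16a3, at -5.59 (adjusted p = 8.55e-09), the largest negative differences of the glycolysis genes were in Pgk1, at -2.23 (adjusted p = 4.43e-12), Pfkp, at -2.08 (adjusted p = 1.57e-12), and Aldoa, at -1.97 (adjusted p = 4.32e-12). Of the hypoxia genes, P4ha1, at -4.18 (adjusted p = 2.33e-13), and Vegfa, at -4.16 (adjusted p = 2.33e-13), differed most, followed by Car12, at -3.61 (adjusted p = 2.33e-07), and Car9, at -3.34 (adjusted p = 5.18e-05). The difference was positive and past the threshold for Pfkfb4, at 0.74 (adjusted p = 0.0129), Ankrd37, at 0.95 (adjusted p = 0.0161), Kdm3a, at 0.61 (adjusted p = 1.5e-06), and Ddit4. Leaving out 1 library ended the call for Pfkfb4 (adjusted p 0.052 to 0.0855, without library 1 of apsMC706 EM or 1 of apsMC706 noEGF or 2 of CTO19 noEGF), Ankrd37 (adjusted p 0.067 to 0.1, without library 2 of apsMC706 EM or 1 of apsMC706 noEGF or 1 of CTO19 EM or 2 of CTO19 noEGF) and Adm (adjusted p 0.171, without library 1 of CTO19 EM). Slc2a1, Pfkm, Pfkfb3 and Eno2 did not pass, at -0.03 (adjusted p = 0.801), -0.25 (adjusted p = 0.0857), 0.06 (adjusted p = 0.675) and -0.71 (adjusted p = 0.379). Pfkm passed when 1 library was left out, with an adjusted p 0.0157 to 0.0454 without library 1 of apsMC706 noEGF or 1 of CTO19 EM or 2 of CTO19 noEGF. With all 8 libraries it passed at 0.0416 with DESeq2 size factors, 0.0301 with upper-quartile factors, 0.00507 with no filter and 0.0244 with the stricter filter. The adjusted p of Pfkfb4 was 0.0546 with limma-voom, and that of Ankrd37 was 0.064 with the DESeq2 Wald test.

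Fewer of the genes passed in the comparison over both lines, which had a term for line. It counted the 2 libraries of a line and medium as separate samples, though they may be technical, so its p-values may be too small. Its spread also included unequal responses of the 2 lines, which raise the p-values of genes that moved in opposite directions. In noEGF, 3 glycolysis genes rose and 7 fell, and 4 hypoxia genes rose and 1 fell, where 48.8% of all genes passed (25.5% higher and 23.3% lower). At least 2-fold changes passed for 2 genes of each group, and for 15.7% of all genes. The glycolysis genes that rose were Aldoc, at 1.54 (adjusted p = 0.00533), Eno2, at 1.80 (adjusted p = 0.00238), and Pfkm, at 0.92 (adjusted p = 0.000321). Those that fell were Ldha, at -0.68 (adjusted p = 0.0159), Hk2, at -0.66 (adjusted p = 0.0044), Gapdh, at -0.65 (adjusted p = 0.016), Slc2a1, at -0.60 (adjusted p = 0.000213), Eno1, at -0.55 (adjusted p = 0.00197), Pgam1, at -0.46 (adjusted p = 0.0278), and Pkm, at -0.45 (adjusted p = 0.00661). The hypoxia genes that rose were Adm, at 1.33 (adjusted p = 0.0456), Bnip3, at 1.09 (adjusted p = 0.0165), Ddit4, at 0.69 (adjusted p = 0.00227), and Epas1, at 0.59 (adjusted p = 0.00564), and Egln1 fell, at -0.37 (adjusted p = 0.00699). The value of Adm came from apsMC706, since CTO19 had counts at the floor. Leaving out 1 library ended the call for Gapdh (adjusted p 0.0883 to 0.0896, without library 1 or 2 of CTO19 noEGF), Pgam1 (adjusted p 0.0594 to 0.157, without library 1 or 2 of CTO19 EM or 1 or 2 of CTO19 noEGF), Pkm (adjusted p 0.0553 to 0.0557, without library 1 or 2 of CTO19 noEGF), Ldha (adjusted p 0.0875 to 0.0882, without library 1 or 2 of CTO19 noEGF), Bnip3 (adjusted p 0.0556 to 0.0562, without library 1 or 2 of apsMC706 EM), Egln1 (adjusted p 0.0636 to 0.0643, without library 1 or 2 of CTO19 noEGF) and Adm (adjusted p 0.0507 to 0.183, without library 1 or 2 of apsMC706 EM or 1 or 2 of apsMC706 noEGF or 2 of CTO19 EM or 2 of CTO19 noEGF). Genes with called responses of opposite sign in the lines did not pass here. Vegfa gave 0.14 (adjusted p = 0.916), P4ha1 0.39 (adjusted p = 0.752), Pgk1 0.15 (adjusted p = 0.803), Pfkp 0.02 (adjusted p = 0.981) and Slc16a3 0.83 (adjusted p = 0.582). Hk1, Gpi1, Pfkl, Aldoa, Tpi1 and Pdk1 gave -0.10, 0.11, 0.23, 0.40, -0.14 and 0.33. Ndrg1, Car9, Car12, Egln3, Hif1a, Kdm3a and Bhlhe40 gave 0.49, -0.62, -0.15, -0.19, -0.18, 0.12 and 0.20. P4ha2, Ankrd37, Pfkfb3 and Pfkfb4, which passed in 1 line or in neither, did not pass here, at 1.18 (adjusted p = 0.0883), -0.37 (adjusted p = 0.259), 0.13 (adjusted p = 0.152) and 0.36 (adjusted p = 0.142). With all libraries, the adjusted p of Pgam1 was 0.0537 with upper-quartile factors, 0.0534 with no filter, 0.0771 with the stricter filter and 0.0511 with the replicate block, and that of Adm was 0.265 with the DESeq2 Wald test and 0.101 with the replicate block. P4ha2 passed at 0.0195 with the DESeq2 Wald test and 0.0351 with limma-voom, Pfkfb3 at 0.0315 with the stricter filter, and Pfkfb4 at 0.0324 with limma-voom. With 1 library left out, a call was gained for Pfkfb3 (adjusted p 0.0426, without library 1 of CTO19 noEGF) and P4ha2 (adjusted p 0.0462, without library 2 of CTO19 noEGF).

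The lines also differed within each medium. In noEGF, CTO19 was higher than apsMC706 for 6 glycolysis genes and lower for 11, and higher for 4 hypoxia genes and lower for 10, where 80% of all genes passed (45.7% higher and 34.3% lower). The count of glycolysis genes higher in CTO19 was 2, with 12 lower, without library 2 of CTO19 noEGF, and 3, with 12 lower, with upper-quartile factors or the DESeq2 Wald test. In EM, CTO19 was higher for 14 glycolysis genes and lower for 5, and higher for 6 hypoxia genes and lower for 7, where 71.3% of all genes passed (37.5% higher and 33.8% lower). The 5 glycolysis genes lower in CTO19 became 3 without library 2 of apsMC706 EM. At least 2-fold differences passed for 7 glycolysis and 8 hypoxia genes in noEGF (34.2% of all genes) and for 4 of each in EM (28.6% of all genes). The median of the glycolysis genes was thus -0.39 in noEGF and 0.32 in EM, against 0.13 and 0.02 over all genes. That of the hypoxia genes was -0.58 in noEGF and -0.07 in EM. The most uneven member was Car12, with log2 differences of 6.45 in noEGF and 10.06 in EM, followed in EM by Slc16a3, at 5.99, and Car9, at 5.03. In apsMC706 EM, Car12 had 4 and 4 counts, Slc16a3 14 and 13, and Car9 5 and 4. The sizes of these EM differences are therefore uncertain. In noEGF, Slc16a3 differed by 0.39 (adjusted p = 0.0205). Vegfa was lower in CTO19 in both media, at -5.12 (adjusted p = 1.97e-17) in noEGF and -0.96 (adjusted p = 7.52e-10) in EM. Bnip3, Pdk1, Aldoc and Pfkp were also lower in CTO19 in both media, at -2.40, -2.36, -2.22 and -2.59 in noEGF and -0.99, -0.85, -0.78 and -0.51 in EM. Slc2a1 and Pfkfb4 were higher in CTO19 in both media, at 0.77 and 3.05 in noEGF and 0.79 and 2.32 in EM. P4ha1, Pgk1 and Aldoa were lower in CTO19 in noEGF, at -2.48, -2.08 and -0.73, and higher in EM, at 1.70, 0.14 and 1.23. In noEGF, leaving out 1 library raised the adjusted p over the threshold for Pfkm (adjusted p 0.115 to 0.199, without library 1 of apsMC706 noEGF or 2 of CTO19 noEGF), Pfkfb3 (adjusted p 0.113, without library 2 of CTO19 noEGF), Eno1 (adjusted p 0.0507 to 0.607, without library 1 of apsMC706 noEGF or 2 of CTO19 noEGF), Slc16a3 (adjusted p 0.0699 to 0.266, without library 1 or 2 of apsMC706 noEGF or 1 or 2 of CTO19 noEGF) and Epas1 (adjusted p 0.112, without library 1 of CTO19 noEGF). It brought it under the threshold for Hk2 (adjusted p 0.044, without library 1 of apsMC706 noEGF), Eno2 (adjusted p 0.0411, without library 1 of CTO19 noEGF), Pkm (adjusted p 0.00193 to 0.0106, without library 1 or 2 of CTO19 EM or 1 or 2 of CTO19 noEGF) and Ddit4 (adjusted p 0.0172, without library 2 of CTO19 noEGF). With all libraries, the adjusted p in noEGF was 0.0686 with upper-quartile factors and 0.0978 with the DESeq2 Wald test for Pfkm, 0.224 with upper-quartile factors, 0.138 with no filter, 0.0802 with the stricter filter and 0.0807 with the DESeq2 Wald test for Eno1, and 0.0705 with upper-quartile factors, 0.0539 with the stricter filter, 0.0626 with the DESeq2 Wald test and 0.0551 with limma-voom for Slc16a3. Pkm passed at 0.00514 with DESeq2 size factors, 0.00244 with upper-quartile factors, 5.64e-05 with no filter, 0.00284 with the stricter filter and 0.00766 with the DESeq2 Wald test, and Ddit4 at 0.0365 with upper-quartile factors and 0.00713 with no filter. In EM, the adjusted p was 0.0537 with the stricter filter for Tpi1, and 0.0516 with the stricter filter and 0.0762 with the DESeq2 Wald test for Egln1. Leaving out 1 library in EM raised it over the threshold for Pfkfb3 (adjusted p 0.0546, without library 1 of apsMC706 EM), Tpi1 (adjusted p 0.0693 to 0.271, without library 1 or 2 of apsMC706 EM or 1 of CTO19 EM), Pgk1 (adjusted p 0.0712 to 0.132, without library 1 of apsMC706 EM or 2 of CTO19 EM), Ldha (adjusted p 0.0581, without library 2 of apsMC706 EM), Ankrd37 (adjusted p 0.0529 to 0.066, without library 2 of apsMC706 EM or 1 of CTO19 EM) and Egln1 (adjusted p 0.0579 to 0.23, without library 1 or 2 of apsMC706 EM or 1 of CTO19 EM).

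**Figure D4:**
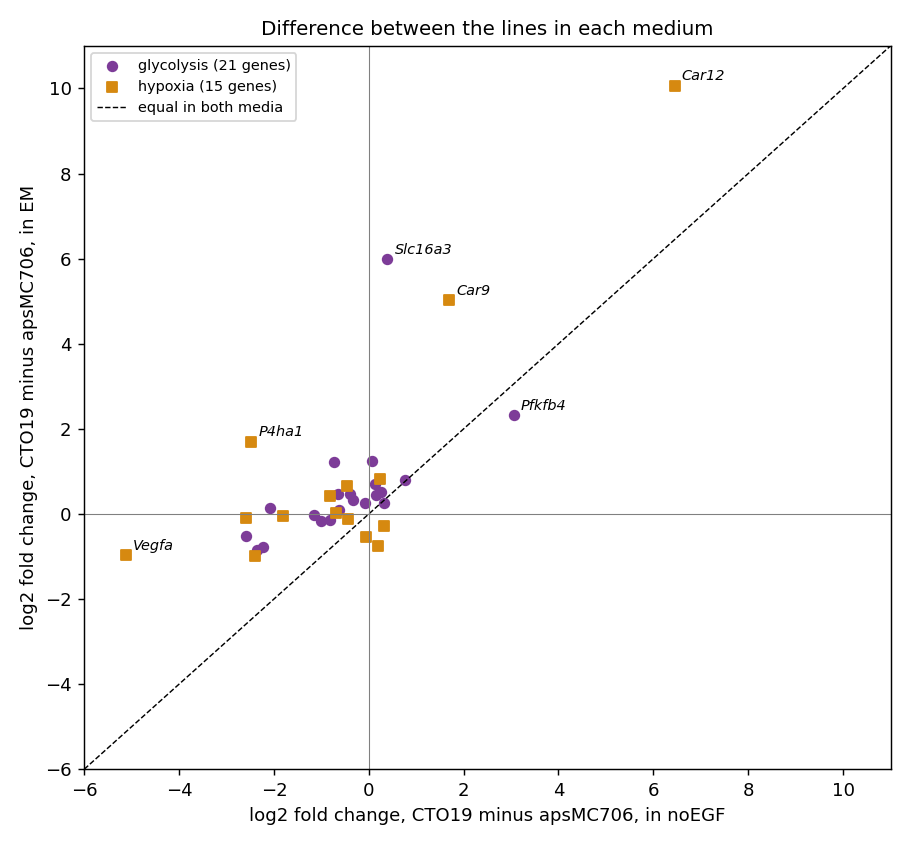
Difference between the lines, as the log2 fold change of CTO19 over apsMC706, in noEGF on the x axis and in EM on the y axis, for 21 glycolysis and 15 hypoxia genes. Points above the dashed line of equality, such as Slc16a3, P4ha1 and Vegfa, have a lower response to noEGF in CTO19 than in apsMC706, and Adm is not drawn because its CTO19 counts were at the floor.

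Within families of isoforms, the make-up per length of the phosphofructokinases and of P4ha1 and P4ha2 changed more in CTO19 than in apsMC706. That of the hexokinases and of Egln1 and Egln3 changed more in apsMC706. Hk1 made up 63.0% of Hk1 and Hk2 in CTO19 noEGF against 58.8% in CTO19 EM, and 64.0% in apsMC706 noEGF against 49.4% in apsMC706 EM. Egln1 made up 46.8% of Egln1 and Egln3 in CTO19 noEGF against 43.0% in CTO19 EM, and 46.5% in apsMC706 noEGF against 56.5% in apsMC706 EM. Pfkp made up 13.0% of the 3 phosphofructokinase transcripts in CTO19 noEGF against 22.5% in CTO19 EM, and 39.9% in apsMC706 noEGF against 36.4% in apsMC706 EM. Pfkm made up 26.4% in CTO19 noEGF against 12.9% in CTO19 EM, and 11.3% in apsMC706 noEGF against 10.3% in apsMC706 EM. The share of Aldoc in Aldoa and Aldoc stayed a minority, at 3.44% in CTO19 noEGF against 1.34% in CTO19 EM, and 9.12% in apsMC706 noEGF against 5.23% in apsMC706 EM. P4ha1 made up 52.2% of P4ha1 and P4ha2 in CTO19 noEGF against 77.0% in CTO19 EM, and 50.4% in apsMC706 noEGF against 49.0% in apsMC706 EM. These shares use the length of all exons of a gene. With the length of the longest transcript, the share of P4ha1 was 35.3% in CTO19 noEGF and 62.55% in CTO19 EM. In apsMC706 it was then 33.6% in noEGF and 32.4% in EM. Which of P4ha1 and P4ha2 led in the noEGF groups thus depended on the length used. All shares are descriptions and were not tested.

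Genes around the members were read from 3 further lists, which exclude the 37. Of 46 other genes of glucose metabolism, 36 passed the filter, and over both lines 13 rose and 7 fell in noEGF, with a median log2 fold change of 0.0017. Over all genes, 25.5% rose and 23.3% fell in that comparison. Pdk2, a further pyruvate dehydrogenase kinase, rose by a log2 fold change of 1.80 (adjusted p = 4.05e-05). Slc5a1, the sodium-glucose transporter of the gut, rose by 2.02 (adjusted p = 0.000959), Pck2, the mitochondrial phosphoenolpyruvate carboxykinase, by 0.88 (adjusted p = 0.00135), and G6pc3, a glucose phosphatase, by 0.46 (adjusted p = 0.0106). Gbe1, the glycogen branching enzyme, had -1.24 (adjusted p = 6.51e-05), Slc16a1, the monocarboxylate transporter MCT1, -0.85 (adjusted p = 0.00324), Pdk3 -0.61 (adjusted p = 0.00255) and Eno1b -0.55 (adjusted p = 0.00174), and all 4 fell. Eno1b is a copy of the member Eno1, and 25.3% of the 50-base stretches of Eno1 occur in it. How reads that match both were counted is not known here, so its value may not be separate from that of Eno1. In CTO19, 14 genes of this list were higher and 13 lower (all genes 34.7% and 33.3%), and in apsMC706 14 were higher and 12 lower (all genes 34.1% and 33.1%). Of 48 other hypoxia and HIF genes, 47 were matched and 42 passed the filter, and over both lines 14 rose and 4 fell (all genes 25.5% and 23.3%), with a median of 0.34. Edn1, the vessel-constricting peptide endothelin, rose by 1.96 (adjusted p = 0.000112), Mxi1, a Myc antagonist, by 0.65 (adjusted p = 0.000344), Pnrc1, a nuclear receptor coactivator, by 1.08 (adjusted p = 0.000831), and Bnip3l, the mitophagy receptor related to Bnip3, by 0.75 (adjusted p = 0.000898). Tfrc, the transferrin receptor, had -1.80 (adjusted p = 0.00155), Higd1a -0.30 (adjusted p = 0.0183) and Jmjd6 -0.29 (adjusted p = 0.021), and all of these fell. In CTO19, 20 genes of this list were higher and 14 lower in noEGF (all genes 34.7% and 33.3%), and in apsMC706 21 were higher and 7 lower (all genes 34.1% and 33.1%). The median of this list was 0.20 in CTO19 and 0.60 in apsMC706. Of 8 genes of the pentose phosphate pathway, which branches off glycolysis near its start, 1 rose and 5 fell over both lines (all genes 25.5% and 23.3%), with a median of -0.42. Pgls rose, at 0.58 (adjusted p = 0.00462), and Pgd, which makes NADPH, fell by the most of the named, at -1.18 (adjusted p = 0.00301), with Rpia at -0.62 (adjusted p = 0.00141), Tkt at -0.39 (adjusted p = 0.00249) and Rpe at -0.31 (adjusted p = 0.00235).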

How the data were processed

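Poly(A)-selected RNA of the organoids was sequenced in 8 libraries. The authors deposited raw counts per Ensembl gene, whole numbers in every library. Per the submitters' processing notes, STAR 2.7.0a and the mm10 build were used; what counted the reads, with which strand setting and annotation, was not given in these sources, and per the labels' protocols the kit does not mark strand. Names, coordinates and exon lengths came from GENCODE M21, where 32680 of 32728 genes were found, and promoters from RefSeq.

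The counts were analysed with R 4.3.3 and edgeR 4.0.16. Filtering by filterByExpr on the 4 groups left 16719 genes with 99.971% of counts, scaled by TMM. Levels are counts per 1e6 (CPM) with the TMM factor, and RPKM uses the exon union. Tests were edgeR's two-sided quasi-likelihood F-tests (robust), with Benjamini-Hochberg adjustment over all 16719 genes, with a threshold of 0.05. The comparison over both lines had terms for line and for medium, with 5 residual degrees of freedom and a biological variation (BCV) of 16.9%; the others used the 4 group means, which share 1 estimate of the spread, with 4 degrees of freedom and a BCV of 4.27%. The floor of 3 counts was 0.0745 to 0.0868 CPM, and covers counting error only. Replicates of a group differed by more than sampling noise (chi-square per degree of freedom 3.38 to 10.4).

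The 37 members and the further lists were chosen with earlier results of these data known, and no list was tested as a set. All members are named. Values of all 8 libraries are given for members that passed with at least a 2-fold change in any of 6 comparisons, and for Hif1a, Epas1 and Slc2a1. Of the further lists, up to 4 genes per direction with the smallest p over both lines and a mean log2 CPM of at least 1 are named, except 1 gene that is not reported here. The share of 50-base stretches found in other genes was counted over annotated transcripts. Alternatives were no filter on low counts, scaling by DESeq2 size factors or by upper quartiles, a filter of 1 CPM in at least 4 libraries, the DESeq2 1.42.0 Wald test, limma-voom (limma 3.58.1), the replicate number as a block, an adjusted p under 0.01, summed libraries, and each library left out in turn, which leaves 1 group with a single library that is assumed to vary like the others.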

Additional observations from a re-analysis of the deposited data

Results flagged for a closer look

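The difference of the noEGF response (CTO19 minus apsMC706, log2 scale, interaction term of edgeR's quasi-likelihood test) passed an adjusted p under 0.05 for 33 of the 37 genes, where 56% of all genes tested passed. Among the glycolysis genes it was -1.19 for Hk1, -0.581 for Hk2, -1.12 for Gpi1, -1.13 for Pfkl, -2.08 for Pfkp, 0.738 for Pfkfb4, -1.97 for Aldoa, -1.44 for Aldoc and -0.682 for Tpi1. It was -0.855 for Gapdh, -2.23 for Pgk1, -0.663 for Pgam1, -0.282 for Eno1, -0.319 for Pkm, -0.856 for Ldha, -1.51 for Pdk1 and -5.59 for Slc16a3. Among the hypoxia genes it was -4.16 for Vegfa, -4.18 for P4ha1, -2.49 for P4ha2, 0.947 for Ankrd37, -1.42 for Bnip3, -1.78 for Ndrg1, -3.34 for Car9 and -3.61 for Car12. It was -0.326 for Egln1, -1.12 for Egln3, -0.722 for Hif1a, -0.567 for Epas1, 0.612 for Kdm3a, 0.5 for Ddit4 and -1.25 for Bhlhe40. For Adm the fitted difference was -2.88, but its CTO19 counts were at the floor, so that this value depends on the prior count of the fit. These genes were marked because a direct test found that the lines responded unequally; line and sex cannot be told apart.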

How the results depend on the processing

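The total counts of members called within each line, for the difference of the responses and between the lines stayed within 1.5 times under each alternative run, but some counts by direction did not. The 6 glycolysis genes higher in CTO19 in noEGF became 2 without library 2 of CTO19 noEGF and 3 with upper-quartile factors or the DESeq2 Wald test. The 5 lower in CTO19 in EM became 3 without library 2 of apsMC706 EM, the 3 hypoxia genes lower in apsMC706 became 1 with the stricter filter, and the 1 positive glycolysis difference became 0 with limma-voom, at an adjusted p under 0.01, or without library 1 of apsMC706 EM, 1 of apsMC706 noEGF or 2 of CTO19 noEGF. Over both lines the totals moved too, and the 7 glycolysis genes that fell became 3 without either CTO19 noEGF library and 4 at an adjusted p under 0.01. The 4 hypoxia genes that rose became 2 without either apsMC706 EM library or at an adjusted p under 0.01, and the 1 that fell became 0 without either CTO19 noEGF library. Of the 21 glycolysis genes, 10 passed, and with libraries left out in turn 6 to 10 passed. Of the 16 hypoxia genes, 5 passed, and with libraries left out 3 to 5 passed, with the lowest count without either apsMC706 EM library, and 3 passed at an adjusted p under 0.01. When the 2 libraries of a group were added up, so that each line gave 1 sample per medium, 0 of the 21 and 0 of the 16 passed; this fit has fewer residual degrees of freedom. The replicate numbers did not pair the libraries (correlations of the deviations -0.00825 to 0.0485). With the replicate block, 9 glycolysis and 4 hypoxia genes passed over both lines, 19 and 16 in apsMC706, and 20 and 13 in CTO19. Of 3577 values of single genes under the alternatives, 59 changed sign, none of them past the threshold in either fit. The median log2 fold change over both lines ranged across 0, at -0.18 to 0.31 for the glycolysis genes and -0.13 to 0.55 for the hypoxia genes. In CTO19 it ranged over -0.67 to -0.56 and -0.50 to -0.40 for these lists, and in apsMC706 over 0.47 to 0.58 and 0.99 to 1.21. The scalings shifted the median of all genes by at most 0.0961 in size. The cause of these shifts was not tested. Adm in CTO19, Car9 and Car12 in apsMC706 EM and Eno2 in EM rest on few counts, so that depth limits their folds.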
